A study of Mus musculus with 32 samples.

Results

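Hypoxia-ischemia (HI) of the mouse brain at postnatal day 10 (P10), read 24 h after the insult, was measured on 3 of the 32 two-color microarrays of the series, taken by their labels. In the whole series, 24 arrays set injured against naive hemispheres at P5 or P10 after 3, 6, 12 or 24 h, in groups of 3, and 8 arrays hold naive P2 and P15 pools. The animals were NMRI mice. In the HI group the right carotid was permanently ligatured under isoflurane, and after 1 h with the mother the pups breathed 8% oxygen for 40 min. Naive pups of the same litters, with neither ligature nor hypoxia, were collected at the same time. Each array compared 1 pool of ischemic forebrain hemispheres (Cy5) with 1 pool of right hemispheres of naive pups (Cy3), and each pool held RNA of 6 sex-matched animals. The tissue was cut anterior to the colliculus and the olfactory bulb was removed. The same dye marked HI on all 3 arrays, so that a dye bias of a probe is part of its ratio, and ligature, anesthesia and hypoxia cannot be told apart. Results are given as the log2 ratio of HI over naive processed signal, on which 1 unit is a doubling, for arrays 1, 2 and 3 (biological replicates 1, 2 and 3). The HI arrays at P10 12 h and P5 24 h, 3 each, were used for comparison.

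HI combines loss of blood flow with low oxygen and is used as a model of perinatal brain injury. Dying neurons and stressed glia release signals that activate microglia, the resident macrophages of the brain, and astrocytes. These cells then make chemokines, which attract blood leukocytes, and acute-phase, interferon-stimulated and matrix proteins. In a tissue homogenate, a change in the number of cells of a type and a change in RNA per cell cannot be told apart.

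The 3 arrays did not have the same spread of ratios. Over the 19154 probes tested the SD of the log2 ratio was 0.92 on array 1, 0.52 on array 2 and 0.44 on array 3, and 33.5%, 18.8% and 10.0% of these probes were past 1.5-fold. Ratios of arrays 1 and 2 correlated with r = 0.89 across probes, those of arrays 1 and 3 with r = 0.62 and those of arrays 2 and 3 with r = 0.65 (probes are not independent replicates). From 64.6 to 74.2% of spots were well above background in each dye, and no spot was saturated. Where arrays were weighted by how closely they followed their group, arrays 1, 2 and 3 had weights of 0.39, 3.42 and 0.34. Array 3 thus departed from the group as well. The wide spread of array 1 touches every mean below, so that each array is shown and the genes past 1.5-fold on each of the 3 arrays are counted apart.

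**Figure D1:**
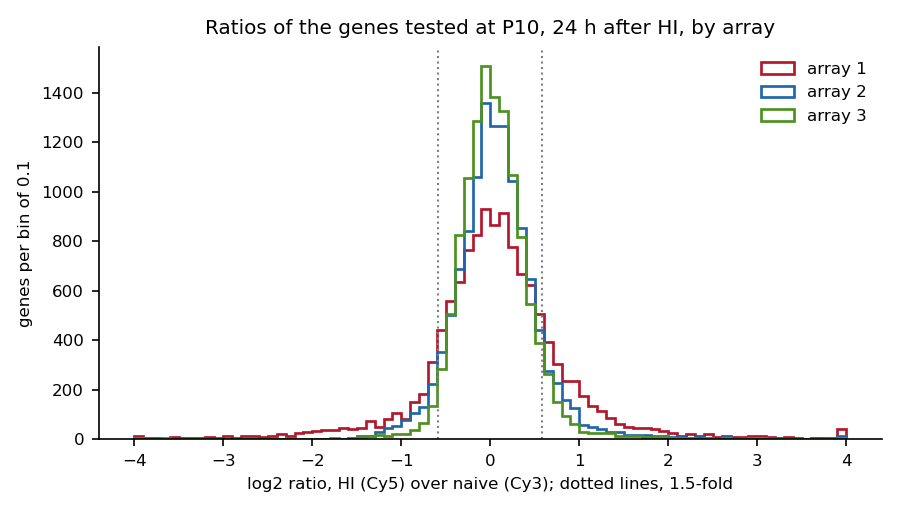
Number of tested genes (y axis, per bin of 0.1) by log2 ratio of HI over naive signal (x axis) on array 1 (red), array 2 (blue) and array 3 (green) at P10, 24 h after HI; ratios beyond 4 in either direction are drawn in the outermost bins. Array 1 had the lowest peak and the widest flanks, and array 3 the narrowest distribution.

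Of 12150 named genes tested, 1278 (10.5%) were induced and 739 (6.08%) were repressed at an adjusted p under 0.05, a fold over 1.5 and 1 direction on all arrays with a ratio. These p-values borrow the spread of all 24 HI arrays. With the 3 arrays alone the same test called 0 induced and 0 repressed genes, while 1247 and 660 had an unadjusted p under 0.05, and the methods' t-test against zero on those arrays also called 0 and 0 after Benjamini-Hochberg correction. Without array 1 the counts were 777 and 236. Up past 1.5-fold on each of the 3 arrays were 527 genes (4.34%), of which 525 were induced, and down past it were 164 (1.35%), of which 160 were repressed. The induced genes had median log2 ratios of 1.22, 0.77 and 0.60 on arrays 1, 2 and 3, and the repressed genes of -1.40, -0.70 and -0.47. A gene with a naive signal under 100 was tested only through its HI dye, so it could hardly be called repressed. Of 625 such genes 62.2% were induced and 0% repressed, and members of the lists below with such signals share this limit. Besides those marked below, these members include Csf1, Il6, Il1b, Il11, Bcl3, Tap2, Cfb, Atf3, Maff, Fas, Cdh5, Pdgfrb, Ch25h, Mcm2 and Mcm3. The counts of their lists thus follow in part from the signal filter. Counts of the lists stand beside the 10.5% induced and 6.08% repressed of all genes, and no test was run over a list. For the gene lists below, a count without array 1 is given where it differs from the count on all arrays by over 1.5 times. The counts over all genes also fell by over 1.5 times without array 1, to 777 and 236 of 12133 tested. Such a drop is therefore not particular to a list, and the 10.5% and 6.08% belong to counts on all 3 arrays.

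Among genes whose naive signal was above background on at least 1 array, the most induced were chemokines, acute-phase and phagocyte genes, and markers of reactive glia. Genes without such a signal, such as Cxcl10, Gpnmb, Tgm1 and Bcl3, are left out of this ranking, although their mean ratios were larger than that of Lilrb4a. Ccl4, a chemokine that attracts monocytes and T cells, had log2 ratios of 6.16, 5.21 and 5.18 (mean 5.52 ± 0.56 SD, n = 3, 45.8-fold, adjusted p = 1.21e-08). Timp1, an inhibitor of matrix metalloproteinases, had 3.42, 3.07 and 3.16 (3.22 ± 0.18, 9.31-fold, adjusted p = 3.03e-09), the smallest SD of the 15 most induced genes. The other leading genes were Lilrb4a, an inhibitory receptor of myeloid cells, at 4.57 ± 0.82, Saa3, an acute-phase protein, at 4.32 ± 1.03, and Lgals3, a lectin of phagocytes, at 3.36 ± 0.43. Spp1, which encodes osteopontin, had 3.14 ± 0.20. All 15 genes plotted as most induced were past 1.5-fold on each array. Array 1 was the highest for 15 of them, and for Ccl3 it exceeded array 2 by less than 0.1 (3.65 against 3.62). Stfa2l1, a member of a family of similar stefin genes, differed most between arrays, with 5.10, 2.65 and 1.67.

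**Figure D2:**
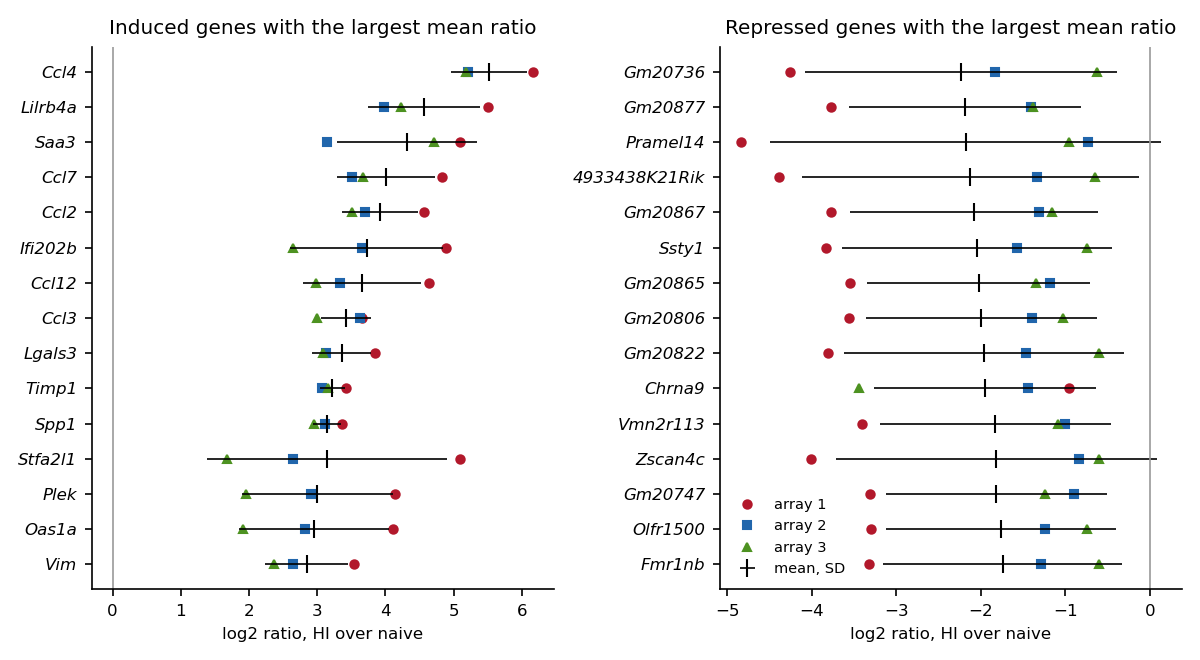
Log2 ratios of HI over naive signal (x axis) on arrays 1 (red circle), 2 (blue square) and 3 (green triangle) for the 15 induced (left) and 15 repressed (right) genes with the largest mean among those past 1.5-fold on each array. Black bars give mean and SD, and genes whose naive signal was above background on none of the arrays are not included. The 3 arrays of induced genes such as Timp1 and Spp1 lay close together, while for most repressed genes array 1 lay far below arrays 2 and 3.

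Most chemokine genes tested were induced. Of 17 CC and CXC chemokine genes tested, 11 were induced, each past 1.5-fold on all 3 arrays, and none was repressed. The median was 2.08 against 0.04 for all genes tested, and 9 were induced without array 1. Of the induced genes, Ccl2, Ccl6, Ccl9 and Ccl12 had a naive signal over 100. Ccl3, Ccl4, Ccl5, Ccl7, Ccl11, Cxcl1 and Cxcl10 were tested only through the HI dye, so the count and the median follow in part from the signal filter. Ccl2, the main attractant of monocytes, had log2 ratios of 4.56, 3.70 and 3.51 (15.2-fold), and Ccl7 had 4.83, 3.51 and 3.68. Ccl12 had 4.63, 3.34 and 2.99, and Ccl3 had 3.65, 3.62 and 2.99. Cxcl10, a chemokine induced by interferon, had 8.12, 6.74 and 6.28, but its naive signal was not well above background on any of the 3 arrays, and it was at least 35.0-fold higher after HI. Such a bound sets the HI level against the lowest signal well above background. It is given below where the naive signal was above background on none of the 3 arrays. Oas1a, Rsad2, Maff and Pdgfrb, given below by their ratios, had a naive signal above background on 1 array only, so the sizes of these ratios are uncertain. At P10 12 h Ccl4 had 7.41, 6.22 and 7.16, above each array at 24 h (difference -1.41, adjusted p = 0.0785), and Ccl2 had 4.52, 3.57 and 4.44, which overlapped. The genes that were not called were mainly homeostatic or lymphoid chemokines, such as Cxcl12 at 0.19 and Ccl19 at -0.20. Of 6 chemokine receptor genes tested, 3 were induced, and 1 without array 1. Cx3cr1, the microglial receptor for fractalkine, had 1.65, 1.05 and 0.78, while Cxcr4 (1.29, 0.44 and 0.23) and Ackr1 (1.31, 0.70 and 0.26) were past 1.5-fold on 1 and 2 arrays and were not called without array 1.

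Among cytokine ligands, 6 of 10 were induced and 1 was repressed, and without array 1 these counts were 3 and 0. Cntf, a neurotrophic factor of astrocytes, had 1.87, 1.71 and 1.96 (mean 1.85 ± 0.13, adjusted p = 3.03e-09), and Csf1, the growth factor of microglia, had 2.75, 2.02 and 1.71. Il6 had 6.57, 3.71 and 2.33 and was at least 4.65-fold higher. Il1b had 2.91, 0.87 and 1.09, Il11 had 1.97, 0.88 and 0.46, and Il18, the repressed member, had -0.84, -0.61 and -0.33, and none of these was called without array 1. Of the genes through which these signals act or are restrained, 4 of 13 cytokine receptors were induced and 1, Csf3r, was repressed, and 5 of 13 NF-kB and JAK-STAT feedback genes were induced, 3 without array 1 and 8 without array 3. The probe named Csf3r had -1.81, -0.41 and -0.28 at a naive signal of 152000, was not called without array 1, and its identity was not tested. Osmr, the oncostatin M receptor, had 1.95, 1.21 and 1.77. Socs3, which restrains JAK-STAT signaling, had 1.87, 1.49 and 1.18. Stat3, the transcription factor it restrains, had 1.93, 1.19 and 0.74. Bcl3 had 6.47, 4.85 and 2.93 and was at least 12.3-fold higher.

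Innate receptors and interferon-stimulated genes made up the next group. Of 11 genes of pattern receptors and the inflammasome, 9 were induced. Tlr2, the receptor for bacterial lipoproteins, had 3.79, 2.69 and 1.59, and Cd14, its co-receptor, had 3.74, 2.39 and 1.74. Clec4d and Clec4e, lectin receptors of myeloid cells, were at least 9.49-fold and 4.43-fold higher. In the interferon response list 22 of 28 genes were induced, 19 of them past 1.5-fold on each array, and 1 was repressed, with a median of 1.58. Without array 1 the number induced was 18, and with background correction by normexp and loess it was 15. Oas1a, a sensor of double-stranded RNA, had 4.11, 2.82 and 1.92 (2.95 ± 1.10, adjusted p = 5.65e-05). Of its 2 tested probes 1 was induced. Usp18, which removes Isg15 from proteins, had 3.60, 2.62 and 1.85, and Rsad2, an antiviral enzyme, had 4.11, 1.51 and 1.61. Oasl2 was at least 9.45-fold and Parp14 at least 5.02-fold higher. Iigp1, an interferon-inducible GTPase, fell instead, with -1.89, -1.03 and -0.51, and was not called without array 1. For most members of the list array 1 was highest and array 3 lowest. The median of the list was 2.23, 1.5 and 0.85 on arrays 1, 2 and 3. Oas1a, Usp18, Rsad2, Oasl2, Parp14, Tlr2, Clec4d and Clec4e were tested only through the HI dye. The counts of both lists and the medians of the interferon list thus follow in part from the signal filter.

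Promoters of interferon-stimulated genes are known for the interferon-stimulated response element. The letters GAAA followed after 2 bases of any kind by GAAA, a form of this element, were searched on both strands in the RefSeq promoters of GRCm38.p6, from 250 bases before to 50 after the start. They were found in 15 of the 27 genes of the list with a promoter there (55.6%) and in 1131 of all 32851 promoters (3.44%). Of the 24 such genes tested, 12 induced genes held them and 7 did not. Of those not called, 3 held them (Ifit1, Stat2 and Gbp5) and 2 did not, so induced and uncalled genes held them in similar shares. The promoters of Oas1a, Isg15 and Gbp2, which were induced, and of Ifit1, which was not called, are shown 5′ to 3′ on the strand of the gene, with the matched letters in capitals; overlapping matches merge into 1 run. Isg15, Gbp2 and Ifit1 were chosen after their values were seen.
Oas1a (chr5:120907476-120907775, minus strand): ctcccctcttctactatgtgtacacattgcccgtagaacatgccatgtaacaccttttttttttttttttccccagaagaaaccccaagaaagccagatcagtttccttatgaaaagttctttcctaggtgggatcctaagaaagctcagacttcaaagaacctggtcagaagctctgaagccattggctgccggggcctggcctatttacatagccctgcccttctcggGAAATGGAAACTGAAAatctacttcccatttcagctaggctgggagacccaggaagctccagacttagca
Isg15 (chr4:156200769-156201068, minus strand): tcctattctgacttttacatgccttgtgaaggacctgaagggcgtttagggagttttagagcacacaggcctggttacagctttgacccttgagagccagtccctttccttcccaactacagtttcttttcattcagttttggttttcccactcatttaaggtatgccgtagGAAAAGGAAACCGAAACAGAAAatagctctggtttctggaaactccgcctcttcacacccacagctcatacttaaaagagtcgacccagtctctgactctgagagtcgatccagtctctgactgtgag
Gbp2 (chr3:142620413-142620712, plus strand): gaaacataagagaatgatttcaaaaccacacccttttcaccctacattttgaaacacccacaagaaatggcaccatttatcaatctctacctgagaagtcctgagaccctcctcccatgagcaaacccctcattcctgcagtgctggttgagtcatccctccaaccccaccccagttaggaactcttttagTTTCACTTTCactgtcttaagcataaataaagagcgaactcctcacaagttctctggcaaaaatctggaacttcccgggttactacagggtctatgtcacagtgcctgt
Ifit1 (chr19:34640639-34640938, plus strand): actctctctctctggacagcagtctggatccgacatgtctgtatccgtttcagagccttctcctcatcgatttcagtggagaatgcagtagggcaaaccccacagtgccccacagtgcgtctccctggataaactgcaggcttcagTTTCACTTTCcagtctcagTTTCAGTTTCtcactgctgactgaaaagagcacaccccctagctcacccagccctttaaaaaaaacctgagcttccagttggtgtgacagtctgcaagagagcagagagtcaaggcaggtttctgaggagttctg
Oas1a held 2 overlapping matches and Isg15 held 3. Isg15, a ubiquitin-like protein, had log2 ratios of 2.48, 1.20 and 0.85, and Gbp2, a guanylate-binding protein, had 2.89, 2.46 and 1.52. Ifit1, whose promoter held 2 matches, had -0.16, -0.61 and 0.30. A match describes these letters and is no evidence of binding.

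In the same way a form of the NF-kB site was searched, GGGA followed after 2 bases of any kind by TTCC. It was in the promoters of 3 of 16 chemokine genes (18.8%) and of 441 of all 27025 genes (1.63%). The 3 genes were Cxcl1, Cxcl2 (not tested, its signal was under 100) and Cxcl10. Cxcl10 held a match to each of both motifs, so its promoter is shown with both in capitals. The promoter of Gbp2 shown above also held a match to the NF-kB letters, which is not in capitals there.
Cxcl10 (chr5:92348840-92349139, minus strand): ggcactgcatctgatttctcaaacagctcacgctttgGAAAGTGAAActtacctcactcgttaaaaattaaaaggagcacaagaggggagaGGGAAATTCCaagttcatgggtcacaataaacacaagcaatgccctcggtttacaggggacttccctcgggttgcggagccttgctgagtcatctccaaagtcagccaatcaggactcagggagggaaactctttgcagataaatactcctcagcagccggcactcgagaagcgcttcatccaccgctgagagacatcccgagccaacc
Among the chemokine genes tested that have a RefSeq promoter, 2 induced genes held the NF-kB letters and 4 induced genes did not. Of those not called, 0 held them and 5 did not.

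Antigen presentation genes went in both directions. Of 12 tested, 7 were induced and 2 repressed, 1 of them without array 1. Of the class I pathway, Tap2, a peptide transporter, had 2.93, 1.83 and 1.11, B2m, the light chain of class I molecules, had 1.57, 0.92 and 0.86, and H2-K1 had 1.64, 0.96 and 0.83. Of the class II pathway, Cd74, the invariant chain, fell with -0.90, -0.92 and -1.09, and Ciita, its transcriptional activator, fell with -2.38, -0.80 and -1.17 and was not called without array 1. The class II molecules themselves were not called, H2-Ab1 with 0.92, 0.49 and -0.06 and H2-Eb1 with 0.28, 0.36 and 0.36. Of 14 complement genes, 5 were induced and 1 repressed. C1qc, a chain of the first component, had 2.03, 1.54 and 1.14, C4b had 2.21, 1.42 and 1.16, and Cfb was at least 4.28-fold higher but was not called without array 1. C2 fell, with -0.88, -0.62 and -0.96.

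Reactive astrocyte genes had the highest median of the lists, 2.15, and 16 of 18 tested were induced, 13 of them past 1.5-fold on each array. Gfap, the intermediate filament by which reactive astrocytes are recognized, had 2.45, 2.03 and 1.86 (2.12 ± 0.30, 4.33-fold, adjusted p = 2.64e-05). Its ratios at P10 12 h were lower without overlap, 1.15, 0.90 and 0.41, and the difference was 1.29 (adjusted p = 0.0458). Without array 1 of 24 h it was 1.13 (adjusted p = 0.175), and only leaving out array 3 of 24 h kept this call among the 6 arrays. Vim, another intermediate filament, had 3.53, 2.65 and 2.37. Tgm1, a transglutaminase, was at least 11.7-fold, Ptx3, a pentraxin, at least 10.98-fold and Cd109 at least 7.05-fold higher. Tgm1, Ptx3 and Cd109 were tested only through the HI dye. Of 13 homeostatic astrocyte genes 4 were induced, and none was repressed. Aqp4, the water channel of astrocyte endfeet, had 0.78, 0.76 and 0.99, and Slc1a2, the main glutamate transporter, had 1.75, 1.19 and 0.35.

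Most genes of reactive microglia were induced, and homeostatic genes went in both directions. Of 19 genes of reactive and phagocytic microglia or macrophages, 16 were induced, 15 of 19 without array 1. Gpnmb, a glycoprotein of phagocytes, was at least 9.93-fold, Cst7, an inhibitor of lysosomal proteases, at least 5.99-fold and Msr1, a scavenger receptor, at least 3.65-fold higher. Gpnmb, Cst7 and Msr1 were tested only through the HI dye. Of 12 homeostatic microglia genes, 2 were induced and 3 repressed, and 1 was repressed without array 1. P2ry12, the receptor by which resting microglia sense nucleotides, fell with -1.58, -0.80 and -0.42 (-0.93 ± 0.59, adjusted p = 0.000337), and Slc2a5 fell with -1.40, -1.003 and -0.18 but was not called without array 1. Olfml3 rose, with 1.24, 0.99 and 0.99. Tmem119 had a mean of -0.42 and Csf1r of -0.17, and neither was called. The probe named Siglech, the third repressed member, had -1.996, -0.73 and -0.12 at a naive signal of 99170, was not called without array 1, and its identity was not tested.

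Markers of blood leukocytes were tested as other cells the tissue could hold. Of 7 neutrophil genes tested of 15 in the list, 4 were induced and 2 repressed, and without array 1 only S100a8 was induced and 0 were repressed. S100a8, a subunit of calprotectin, had 4.52, 1.39 and 1.78, S100a9, the other subunit, had 4.02, 1.38 and 1.66, and Stfa1 had 3.48, 0.79 and 1.48. The repressed members were Camp, with -0.88, -0.70 and -0.35, and the probe named Csf3r, and the signals of Ngp, Ltf, Retnlg and Mpo were too low to be tested. Of 8 genes of monocytes and border macrophages, 4 were induced, and 2 without array 1. Arg1 had 4.10, 0.61 and 0.87 and was at least 2.62-fold higher, since its naive signal was not above background, and it was not called without array 1. Plac8 had 2.62, 0.89 and 0.86. For S100a8, S100a9, Stfa1, Arg1 and Plac8 array 1 exceeded arrays 2 and 3 by over 1.5 units. Of lymphocyte genes 4 of 14 were tested and none was called. None of 7 erythroid genes was called, and Hba-a1 had a mean of -0.06. The part of leukocyte RNA in the other immune lists was not tested.

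**Figure D3:**
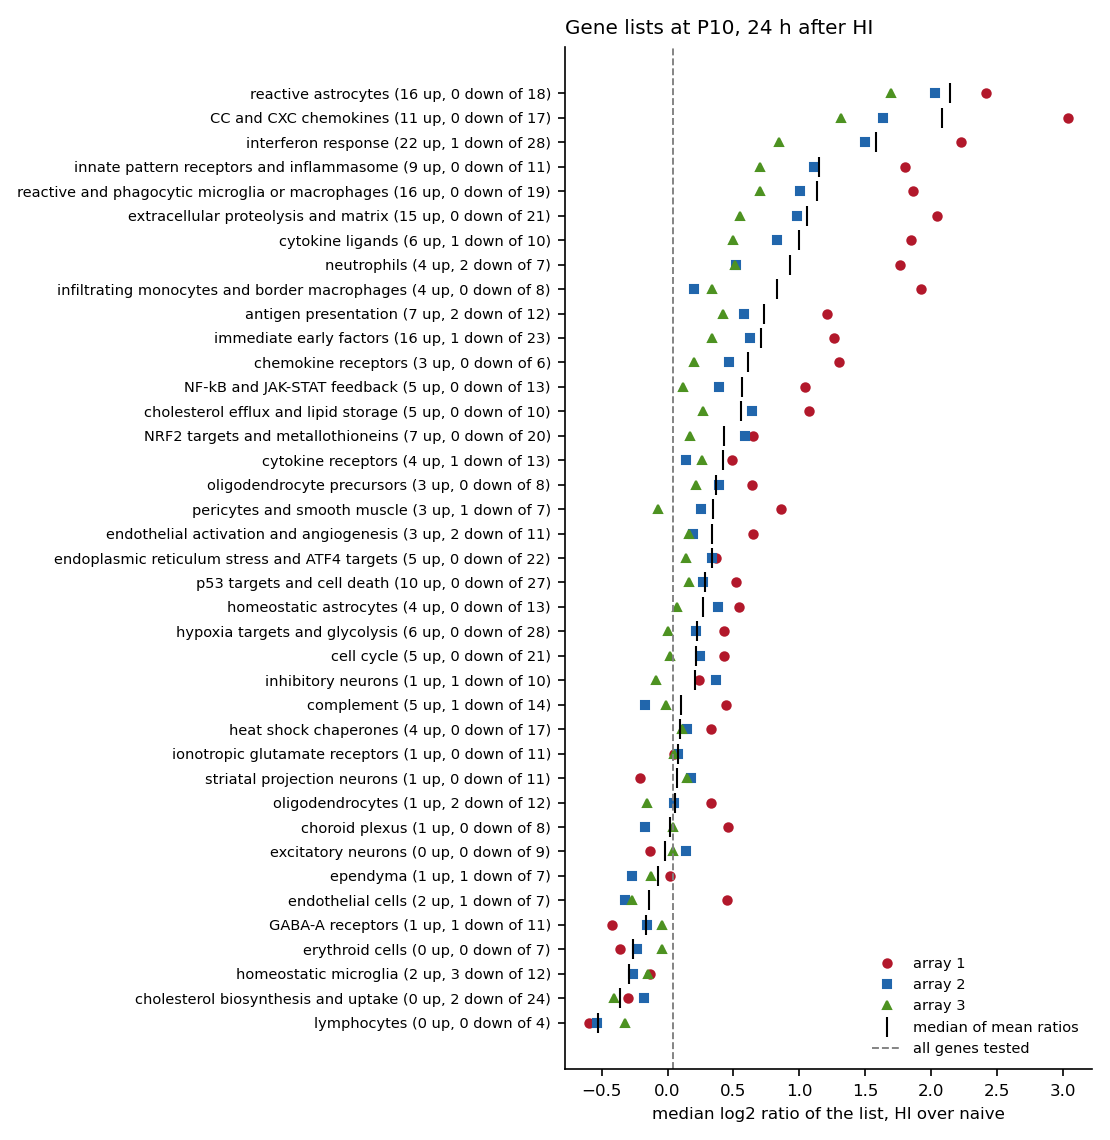
Median log2 ratio of HI over naive signal (x axis) of each gene list with at least 4 tested genes, on arrays 1 (red circle), 2 (blue square) and 3 (green triangle); black bars mark the median of the mean ratios, the dashed line marks all genes tested, and the labels give genes called of those tested. Reactive astrocytes and chemokines have the highest medians, neuronal lists lie near 0, and in the upper lists array 1 is highest.

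Neuronal lists were small, so that their counts cannot be told from the 10.5% induced and 6.08% repressed of all genes. None of 9 excitatory neuron genes was called, and 1 of 10 inhibitory neuron genes was induced and 1 repressed. The induced gene was Dlx2, with 0.87, 0.63 and 0.79. The repressed one was the probe named Lhx6, with -1.43, -0.30 and -0.20 at a naive signal of 41830; it was not called without array 1 and its identity was not tested. Gad1, an enzyme of GABA synthesis, had a mean of 0.25, Slc17a7, the vesicular glutamate transporter, of -0.17, Syt1 of 0.14 and Rbfox3 of 0.17. Tubb3, a neuronal tubulin, had -0.46 ± 0.08 and did not reach 1.5-fold. Snap25, a protein of synaptic vesicle fusion, had -1.20, -0.19 and -0.11 (adjusted p = 0.0459) and did not reach it either. Of receptor subunits, Grik3, a kainate receptor, rose with 1.59, 1.10 and 0.94, and 10 other glutamate receptor genes were not called. Gabrd, the GABA-A subunit outside synapses, fell with -1.01, -0.75 and -0.56, and Gabrb1 rose with 0.80, 0.97 and 0.57. Of 12 oligodendrocyte genes, Mbp, which encodes myelin basic protein, rose with 0.56, 0.61 and 0.75, and Ugt8a, an enzyme of myelin lipid synthesis, fell with -0.65, -0.55 and -0.75. The probe named Ermn had -1.80, -0.70 and -0.22 at a naive signal of 10270; it was not called without array 1 and its identity was not tested. Mog, Mag and Cnp were not called. In precursors of these cells Gpr17 had 0.86, 0.75 and 0.93 and Olig1 had 0.70, 0.76 and 0.48. Markers of neurons, astrocytes, oligodendrocytes and their precursors were all detected in naive pools, with mean signals from 142.7 for Cspg4 to 46270 for Snap25, and the pituitary markers Gh and Prl were too low to be tested.

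Stress responses were mixed. Of 23 immediate early genes 16 were induced and 1 repressed, but 8 were induced without array 1. Atf3, a stress transcription factor, had 3.19, 2.69 and 2.44, against 3.89, 3.81 and 4.85 at P10 12 h (difference -1.41, adjusted p = 0.0266), a difference that was not called without array 1 of 24 h (-1.62, adjusted p = 0.0944), nor without any other of the 6 arrays but array 2 of 12 h. Maff had 3.02, 2.62 and 2.64. Of 28 hypoxia and glycolysis genes, 6 were induced, beside 10.5% of all genes. Without array 1 the number was 3, beside 777 of all 12133 genes tested. Slc2a1, the glucose transporter of the blood-brain barrier, had 1.75, 0.86 and 0.67, and Pfkfb3, an activator of glycolysis, had 2.20, 1.17 and 1.24, while Vegfa, a classic hypoxia target, had a mean of -0.19 and was not called. Of 20 NRF2 targets and metallothioneins 7 were induced. Hmox1, which degrades heme, had 2.72, 1.83 and 1.31, Mt1 had 2.46, 1.83 and 1.45 and Mt2 had 2.62, 1.85 and 1.55. Of 17 heat shock chaperones 4 were induced, among them Hspb8 with 1.83, 1.41 and 0.89, and of 22 genes of endoplasmic reticulum stress 5 were induced, 2 without array 1 and 9 without array 3. The counts of such small lists were not tested against the 10.5% induced of all genes. Of 27 genes of p53 targets and cell death 10 were induced, 6 without array 1, and none was repressed. Fas, a death receptor, had 2.98, 1.97 and 2.02, and Cdkn1a, an inhibitor of the cell cycle, had 1.64, 1.07 and 0.55.

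Matrix genes were mostly induced, and vessel genes went in both directions. Of 21 genes of extracellular proteolysis and matrix 15 were induced. Besides Timp1, Fn1, which encodes fibronectin, had 3.06, 1.23 and 1.21. Of 7 endothelial cell genes 2 were induced and 1 repressed, with a median of -0.14, of 11 genes of endothelial activation 3 and 2, and of 7 pericyte and smooth muscle genes 3 and 1, and without array 1 each of these lists had 1 induced gene. These vessel lists are small, and their counts were not tested against the 10.5% induced and 6.08% repressed of all genes. Pdgfrb, a receptor of pericytes, had 3.73, 2.36 and 1.03, Cdh5, the cadherin of endothelial junctions, had 3.16, 1.77 and 0.82 and Vwf had 2.71, 1.33 and 0.79, and for these array 3 was lowest, while Cldn5 had a mean of -0.14 and was not called. Apln, the ligand apelin, fell with -0.87, -0.65 and -0.91. Flt1, a receptor of vascular endothelial growth factor, had a mean of -0.75, Ptges, a prostaglandin synthase, of -0.66 and Kcnj8, a potassium channel of pericytes, of -0.80, and the calls of all 3 were lost without array 1. The probe named Ptges had a naive signal of 21570, and its identity was not tested. Of 10 genes of cholesterol efflux and lipid storage 5 were induced. Plin2, which coats lipid droplets, had 3.60, 2.82 and 1.68, Ch25h, which makes 25-hydroxycholesterol, had 2.65, 2.40 and 1.47, and Abca1, the cholesterol exporter, had 2.16, 1.51 and 1.04. Of 24 genes of cholesterol synthesis and uptake none was induced, beside 10.5% of all genes. Repressed were 2, beside 6.08% of all genes, and 4 without array 2, with a median of -0.36 for the list. Idi1 had -0.97, -0.52 and -0.78, and Sqle had -0.90, -0.77 and -0.40. The list's medians were -0.30, -0.18 and -0.40 on the 3 arrays. Of 21 cell cycle genes 5 were induced, and 4 of these encode subunits of the replicative helicase. Mcm3 had 2.32, 1.73 and 1.17 and Mcm2 had 2.13, 1.62 and 1.23, and their ratios at P10 12 h were lower without overlap (0.35, 0.53 and 0.48 for Mcm3, difference 1.29, adjusted p = 0.0169). Without array 1 of 24 h neither difference was called (adjusted p = 0.0797 for Mcm3 and 0.12 for Mcm2), nor without array 1 or 3 of 12 h. Mcm6 had a mean of 0.45, Mcm7 of 0.22, Pcna, the replication clamp, of 0.28 and Mki67, a marker of dividing cells, of -0.11, and none of these was called.

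Of the 739 repressed genes, 659 were protein-coding. The most repressed were Gm20736, Gm20877 and Pramel14, with means of -2.24, -2.19 and -2.18, and for 14 of the 15 most repressed genes array 1 was the lowest. Gm20736 had -4.26, -1.83 and -0.63, and Ssty1, a spermatid gene, had -3.83, -1.57 and -0.74. The exception was Chrna9, a nicotinic receptor subunit, with -0.96, -1.45 and -3.44. Of the repressed genes, 165 were past 1.5-fold on array 1 alone. Of the 15 most repressed genes, 12 were no longer called without array 1, the exceptions being Gm20865, Chrna9 and Olfr1500. Among these 15, Gm20736, Gm20877, Gm20867, Ssty1, Gm20865, Gm20806, Gm20822 and Gm20747 are Y-linked members of multicopy families whose probes may share targets. The counts over the 15 genes are therefore not counts of independent genes. Genes that fell evenly on all arrays, chosen after their values were seen, included Chrm4, a muscarinic receptor, with -1.77, -1.10 and -1.55, and Terc, the telomerase RNA, with -1.39, -0.91 and -1.29.

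The share repressed was set out by kind of name, grouped after the values were seen and with no test. Of genes tested, 19 of 67 olfactory receptor genes (28.4%), 8 of 23 vomeronasal receptor genes (34.8%), 47 of 161 predicted genes with Gm symbols (29.2%) and 52 of 274 RIKEN clone names (19.0%) were repressed, against 613 of 11625 genes with other symbols (5.27%). Of lncRNA genes 70 of 234 (29.9%) were repressed, and of protein-coding genes 659 of 11827 (5.57%). Of 3995 probes without a RefSeq name, 865 (21.7%) were repressed and 190 (4.76%) induced. Of 11 Y-linked genes tested 9 were repressed, and they belong to multicopy families (Ssty1, Sly and Gm symbols) whose probes may share targets. The single-copy Y gene Ddx3y had 0.76, -0.65 and -1.33 and was not called, and Xist had 0.70, 1.04 and 2.85 (adjusted p = 0.316).

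The median channel level of the repressed genes (log2, set to a common distribution across arrays) was 9.06, 9.08 and 8.33 in the naive pools and 7.63, 8.26 and 7.68 in the HI pools at 24 h. In the HI pools at 3, 6 and 12 h it averaged 8.40, 8.63 and 8.41, and in the naive pools of those times 8.74, 8.66 and 8.49, against 8.82 at 24 h. The genes were chosen for a low ratio on the 24 h arrays, so the levels of both dyes at 24 h are a description and not a result. The same 739 genes had a median ratio of -0.30 at P10 3 h, 0.13 at 6 h, 0.09 at 12 h and -0.19 at P5 24 h. The 1278 induced genes had medians of 0.25, 0.40, 0.51 and 0.27 in the same order.

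**Figure D4:**
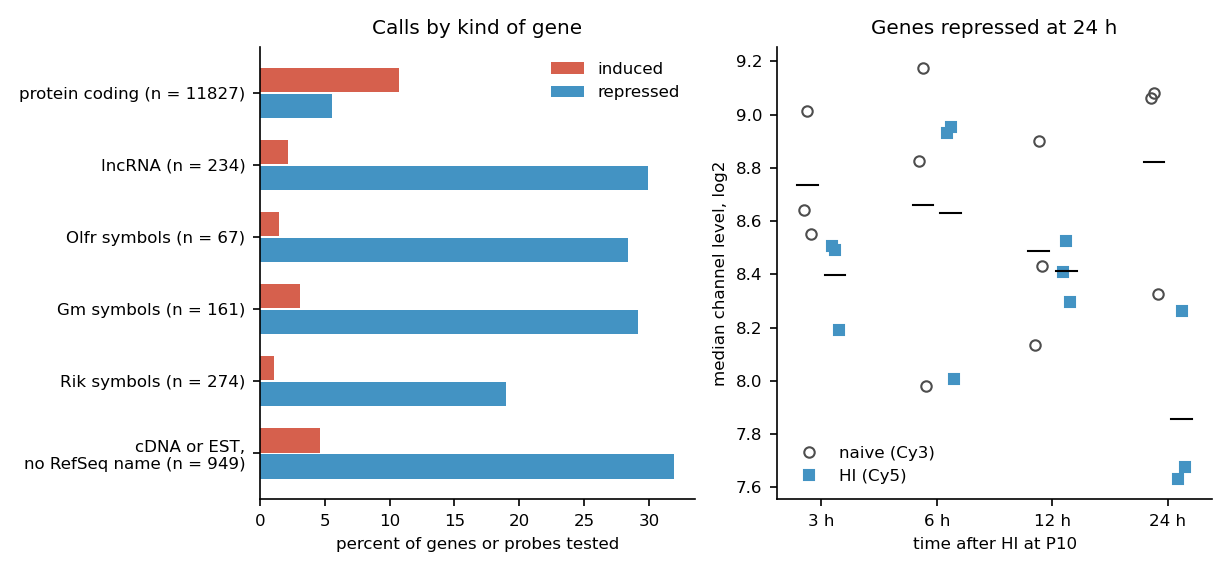
Left, percent of tested genes or probes called induced (red) or repressed (blue) at P10, 24 h after HI, by kind of gene; right, median log2 channel level of the 739 genes repressed at 24 h in naive (open circles) and HI (blue squares) pools of each array at 4 times after HI at P10, with means as black bars. The share repressed is 5.57% for protein-coding genes and 29.9% for lncRNA, and the HI levels at 24 h, on the arrays that chose these genes, average 7.86.

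The response at 24 h was compared with the preceding time point on the same slides. Of 13081 genes tested, the ratio was higher at 24 h than at 12 h for 337 (2.58%) and lower for 628 (4.8%). These counts rest on few arrays: without array 1 of P10 24 h they were 13 and 3, without array 1 of P10 12 h they were 17 and 3, and without array 3 of P10 12 h they were 3 and 1. Of the 6 differences named next, only that of Tgm1 was called without array 1 of P10 24 h, and none with the 6 arrays alone. Tgm1 had the largest difference among genes whose arrays did not overlap, 4.54 ± 0.47 SE (adjusted p = 0.00026), with 6.66, 4.92 and 4.42 at 24 h against 0.34, 1.42 and 0.63 at 12 h. Clec4d had 6.30, 3.93 and 3.09 against 1.70, 0.79 and 1.17, and Gpnmb had 6.64, 5.05 and 4.41 against 0.80, 3.33 and 2.45. The naive signal of these 3 genes was not above background on any array at 24 h, so that the sizes of their ratios and differences are uncertain and only the bounds above hold. Lower at 24 h were A630075F10Rik, whose signal at 24 h was too low for a test of that group alone, with -2.32, -1.52 and -0.85 against 2.72, -0.24 and 0.66, Pde6a, the rod phosphodiesterase, with -2.98, -1.43 and -0.27 against 2.05, -0.11 and 0.82, and Gm10845, with -3.17, -1.10 and -0.25 against 2.54, -0.20 and 0.54. For these array 1 was the lowest at 24 h and the highest at 12 h.

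**Figure D5:**
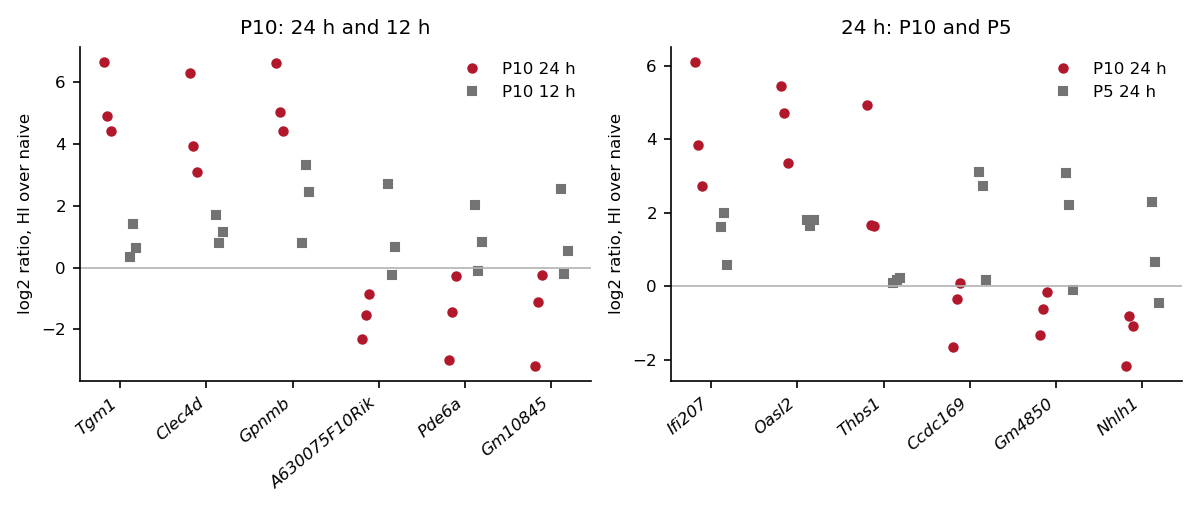
Log2 ratios of HI over naive signal (y axis) on each array for the genes with the largest differences between P10 24 h (red circles) and another group (gray squares), P10 12 h (left) or P5 24 h (right). The left 3 genes of each panel are higher at P10 24 h and the right 3 are lower, and array 1 is the most extreme of the red circles for most.

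At P5 the pups had the same ligature and hypoxia and were also read after 24 h; the 2 ages lie on different slides, so age and slide cannot be told apart. Of 12837 genes tested, the ratio was higher at P10 than at P5 for 543 (4.23%) and lower for 143 (1.11%). Without array 1 of P10 24 h these counts were 11 and 1, without P5 array 1 they were 4 and 0, without P5 array 2 they were 6 and 1, and with ratios scaled to the same spread on each array they were 52 and 5. Both comparisons share the P10 24 h arrays. None of the 6 largest differences named next was called without array 1 of P10 24 h or with the 6 arrays alone. Ifi207, an interferon-inducible gene with close relatives, had 6.10, 3.85 and 2.73 at P10 against 1.60, 1.99 and 0.59 at P5. Oasl2 had 5.46, 4.71 and 3.37 against 1.79, 1.63 and 1.79. The naive signal of both was not above background on any array at P10, where they were at least 3.77-fold and 9.45-fold higher after HI, so that the sizes of their differences between ages are uncertain. Thbs1, which encodes thrombospondin 1, had 4.92, 1.65 and 1.65 against 0.08, 0.17 and 0.23. Vim had 3.53, 2.65 and 2.37 against 1.21, 1.55 and 1.87 (difference 1.31, adjusted p = 0.01), but without array 1 of P10 24 h the difference was 0.96 (adjusted p = 0.0571), and it was not called without P5 array 1 or 2 or with scaled ratios. Gfap, with 1.40, 2.21 and 2.47 at P5, differed by 0.09 (adjusted p = 0.9). Lower at P10 were Ccdc169 with -1.66, -0.34 and 0.09 against 3.11, 2.74 and 0.17, Gm4850 with -1.32, -0.62 and -0.16 against 3.09, 2.22 and -0.10, and Nhlh1 with -2.16, -0.81 and -1.08 against 2.29, 0.66 and -0.45.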

How the data were processed

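Each two-color array compared 1 HI pool (Cy5) with 1 naive pool (Cy3). The authors used Agilent Feature Extraction 10.5.1.1, as named in their processing notes. Per the file headers, the deposited processed signal intensity is background-subtracted and dye-normalized by Lowess on each array alone, not scaled across arrays, and the deposited log10 values are the ratio of red to green processed signal. The log10 series table, with 0 columns without a sample, was used as an alternative. Such normalization leaves the spread of ratios of each array as it is.

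Control and outlier-flagged spots were left out, spots of 1 probe were averaged, and log2 ratios were computed from processed signals. Testing required a mean signal of 100 in either dye and ratios from 2 or more arrays. Group means of the 24 HI arrays (8 groups) were estimated in limma 3.58.1 under R 4.3.3, with empirical Bayes moderation and Benjamini-Hochberg correction over all tested probes. A gene took the value of its brightest tested probe. RefSeq (GRCm38.p6) named 27427 of 39429 probes. Bounds used channel levels after Aquantile normalization. Differences between groups were contrasts of the same fit. The fit was tested on simulated arrays: with 24 arrays 86 of 100 probes changed by a log2 ratio of 1 and 98 of 100 changed by 2 were recovered, with 3 false calls. With the simulated 3 arrays alone 65 and 94 were recovered, with 5 false calls, while the measured 3 arrays alone gave 0 and 0 calls. The simulated noise of a probe had the same spread on every array. The measured arrays did not, so these counts cannot show how the wide spread of array 1 affects the calls.

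Named genes are the 15 most induced and 15 most repressed past 1.5-fold on each array, up to 6 per list, marker genes, and 3 genes per direction and contrast. The 15 most induced leave out genes with a naive signal above background on no array, and the 15 most repressed those with such an HI signal. Members of lists given as not called beyond these, and genes marked so, were chosen after their values were seen. The members and lists were chosen with earlier results of these data known. Alternatives were the choice of probe, signal filter, arrays in the fit, array weights, scaling (normalizeBetweenArrays), slide as random block (statmod 1.5.0), replicate block, normexp (offset 50) with loess, the series table, dye bias from naive pools, call rules, the methods' t-test and leaving out each array. Arrays have no sequencing depth, and the number of arrays, 3 per group, limits the precision. The labels call the arrays of a group biological replicates. The p-values measure the spread between replicate arrays shared over all 24 HI arrays, not that of the 3 arrays at P10 24 h alone. Array 1 of P10 24 h had the widest ratios of the HI arrays (SD 1.01 over all probes). Each array holds 1 pair of pools, so the spread between pools and that of labeling and hybridization cannot be told apart. Figures were drawn with matplotlib 3.10.9. Some members are counted in their lists but not reported by name here.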

Additional observations from a re-analysis of the deposited data

Results flagged for a closer look

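Genes whose ratio at P10 24 h differed from that of another group by a test of the difference itself, with arrays that did not overlap, are given here with the difference on the log2 scale. Against P10 12 h these were Tgm1 (4.54), Clec4d (3.22) and Gpnmb (3.17), which were higher at 24 h, and A630075F10Rik (-2.61), Pde6a (-2.48) and Gm10845 (-2.47), which were lower. Against P5 24 h they were Ifi207 (2.83), Oasl2 (2.78) and Thbs1 (2.58), which were higher at P10, and Ccdc169 (-2.64), Gm4850 (-2.43) and Nhlh1 (-2.19), which were lower. Age and slide cannot be told apart in the latter. The naive signal of Tgm1, Clec4d, Gpnmb, Ifi207 and Oasl2 was not above background on any array at P10 24 h, so the sizes of these differences are uncertain and have no order. With the 6 arrays of each comparison alone 12 of 12 calls were lost, and without array 1 of P10 24 h 11 of 12, the exception being Tgm1. Leaving out array 2 of P10 24 h removed 4. Leaving out array 1 or array 3 of P10 12 h removed 5 of the 6 calls of the first comparison, and leaving out P5 array 1 or 2 removed 6 of 6 of the second.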

How the results depend on the processing

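No result reversed its direction under any alternative run. The counts of induced and repressed genes (1278 and 739) were 2014 and 1181 without a signal filter, 1944 induced with a filter on probes well above background, 489 and 320 with normexp and loess, 442 repressed with ratios scaled between arrays, 573 and 230 by the methods' t-test without correction, 525 and 160 past 1.5-fold on each array, and 0 and 0 both for the 3 arrays alone and for the methods' t-test with Benjamini-Hochberg correction. Leaving out 1 array gave from 777 to 1672 induced and from 236 to 1060 repressed genes, the lowest without array 1. Against P10 12 h (337 higher, 628 lower) the counts were 0 and 0 with the 6 arrays alone (446 and 727 at an unadjusted p under 0.05), 775 higher with array weights, 119 and 327 with scaled ratios, and from 3 to 719 and from 1 to 883 leaving out 1 array. Against P5 24 h (543 higher, 143 lower) they were 0 and 0 with the 6 arrays alone (739 and 356 unadjusted), 1058 and 549 with array weights, 52 and 5 with scaled ratios, and from 4 to 1286 and from 0 to 553 leaving out 1 array. At P10, arrays of equal replicate number share a slide. Correlations of their deviations from group means ranged from -0.56 to 0.38. Deviations within a group of 3 are not independent, so these values cannot show whether the arrays are paired. The correlation within slides, estimated in the fit with slide as random block, was 0.232. With that block the counts were 1278 and 728, against P10 12 h 491 and 775, and against P5 24 h 498 and 119. With the replicate block the counts were 1284 and 762, against P10 12 h 472 and 740, and against P5 24 h 736 and 292. Of 177 named genes that were called, 59 lost the call without array 1, 4 without array 2, 2 without array 3 and 54 with normexp and loess. Of these and the 12 named differences, 40 of 189 lost it with scaled ratios. Of the 12 named differences alone, 11 were lost without array 1 of P10 24 h. With normexp and loess the number induced fell by over 1.5 times to 1 chemokine receptor, 3 cytokine ligands, 1 cytokine receptor, 3 feedback genes, 5 innate receptors, 4 antigen presentation genes, 9 immediate early genes, 2 endoplasmic reticulum stress genes, 4 p53 and cell death genes and 2 cell cycle genes. Over all genes the number induced fell by over 1.5 times as well, from 1278 to 489. The causes were not tested. Low signals limit the ratios of the 23 induced genes whose naive signal was not above background.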
